A study of Mus musculus with 6 samples.

Results

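The genes described here carry the ionic steps of odor transduction and the chloride gradient that those steps draw on. They are Cnga2, Cnga4 and Cngb1, the subunits of the olfactory cyclic nucleotide-gated (CNG) channel; Ano2, the calcium-activated chloride channel of the cilia; its relatives Ano1 and Ano6; Best2, a bestrophin once proposed for the same role; and Slc12a2 (NKCC1), which loads cells with chloride. They were chosen by name for their function, and all 8 were present among the 24661 genes of the files. RNA from the whole olfactory mucosa, which holds the olfactory epithelium and the tissue around it, was sequenced from 3 wild-type and 3 RTP1,2DKO mice of the C57BL/6 strain at postnatal day 21. The wild-type mice carried intact Rtp1 and Rtp2, and in RTP1,2DKO mice the coding regions of both genes had been replaced in the germline. Per the methods, the animals were littermates matched for sex, and the mutant line was made in hybrid 129/B6 embryonic stem cells and backcrossed. No mouse received a treatment.

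In the cilia of an olfactory sensory neuron (OSN), an odorant receptor (OR) activates adenylate cyclase through the G protein Golf. Cyclic AMP opens the CNG channel, a tetramer of Cnga2, Cnga4 and Cngb1 subunits, and the entering calcium opens the chloride channel encoded by Ano2. Chloride then leaves the cell and deepens the depolarization, since Slc12a2 keeps the chloride concentration inside OSNs high. RTP1 and RTP2 help ORs reach the cell surface, so the comparison asks how RNA for these later steps stood in mice in which that help was lacking.

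Cnga2 lies on chromosome X from 71991849 to 72010218 on the plus strand, Cnga4 on chromosome 7 from 105404568 to 105408742 on the plus strand, and Cngb1 on chromosome 8 from 95239045 to 95306585 on the minus strand (GENCODE M21, GRCm38). Ano2 lies on chromosome 6 from 125690419 to 126040126 on the plus strand, Ano1 on chromosome 7 from 144588549 to 144751974 on the minus strand, and Ano6 on chromosome 15 from 95790843 to 95974751 on the plus strand. Best2 lies on chromosome 8 from 85007202 to 85014531 on the minus strand. All 8 are protein-coding, and their reads were counted on spliced transcripts. In 7 of them every word of 31 bases was found in no other gene, and in Cngb1 99.8% of the words were unique. Exons of Ano6 overlap the genes A130051J06Rik and Gm49172 on the opposite strand, and no other member overlaps an exon of another gene.

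The sequences before the transcription starts are shown as a description, for members that fell and for members that did not pass the test. Whether they bear on the change in RNA was not tested. The 250 bases before the start were taken from RefSeq (GRCm38.p6) for Cnga2, Cnga4, Cngb1 and the most upstream of 3 starts of Ano2, all of which were lower in RTP1,2DKO, and for Ano1 and Ano6. Each is written 5′ to 3′ on the strand of the gene, and capitals mark the letters CCCNNGGG, the core of the site bound by Olf/EBF factors, which are known from promoters of OSN genes.
Cnga2, chrX:71991599-71991848, plus strand: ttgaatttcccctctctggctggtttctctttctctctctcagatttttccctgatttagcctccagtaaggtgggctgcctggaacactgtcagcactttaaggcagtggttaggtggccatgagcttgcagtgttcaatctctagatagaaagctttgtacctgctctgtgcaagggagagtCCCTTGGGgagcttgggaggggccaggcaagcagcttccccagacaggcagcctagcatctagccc
Cnga4, chr7:105404318-105404567, plus strand: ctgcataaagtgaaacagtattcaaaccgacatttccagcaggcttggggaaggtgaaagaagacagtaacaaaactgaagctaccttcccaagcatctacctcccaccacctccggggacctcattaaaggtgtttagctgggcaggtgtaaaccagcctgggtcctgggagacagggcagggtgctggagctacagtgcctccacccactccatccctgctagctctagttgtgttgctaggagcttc
Cngb1, chr8:95306586-95306835, minus strand: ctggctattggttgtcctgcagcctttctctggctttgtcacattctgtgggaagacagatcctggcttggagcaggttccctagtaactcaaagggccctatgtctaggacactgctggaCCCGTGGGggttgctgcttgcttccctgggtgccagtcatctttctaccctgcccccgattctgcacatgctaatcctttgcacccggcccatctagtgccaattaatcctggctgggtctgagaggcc
Ano2, chr6:125690169-125690418, plus strand: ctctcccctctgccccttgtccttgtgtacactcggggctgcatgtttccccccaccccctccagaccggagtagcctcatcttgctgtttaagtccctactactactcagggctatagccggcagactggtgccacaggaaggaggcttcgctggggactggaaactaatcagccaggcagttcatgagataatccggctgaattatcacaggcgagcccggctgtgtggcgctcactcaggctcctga
Ano1, chr7:144738574-144738823, minus strand: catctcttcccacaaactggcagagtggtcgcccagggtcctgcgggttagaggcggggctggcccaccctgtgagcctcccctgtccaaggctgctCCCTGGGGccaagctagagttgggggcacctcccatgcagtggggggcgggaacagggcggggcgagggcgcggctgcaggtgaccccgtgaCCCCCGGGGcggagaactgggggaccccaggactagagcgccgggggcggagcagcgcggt
Ano6, chr15:95790593-95790842, plus strand: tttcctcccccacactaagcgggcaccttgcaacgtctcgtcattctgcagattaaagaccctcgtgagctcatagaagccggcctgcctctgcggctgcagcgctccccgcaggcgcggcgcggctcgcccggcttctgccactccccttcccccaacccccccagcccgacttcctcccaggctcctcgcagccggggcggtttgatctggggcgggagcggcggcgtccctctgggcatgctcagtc

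The letters CCCNNGGG, which read alike on both strands, were found in 13.67% of 32851 promoter windows of the same length, counting 250 bases before and 50 after each start. Cnga2 held them at position -66 from the start and Cngb1 at position -129. The Cngb1 start used, 95306585 on chromosome 8, is that of its longest transcript. Coding transcripts of 3243 and 3336 bases start within the gene, at 95281590 and 95281610, and the bases before these starts were not searched. In Cnga4 the match began at base 25 after the start, outside the sequence shown. The start of Ano2 shown above, and the next one, had no match, while its start at 125711188 on chromosome 6 had one at position -67. Ano1 held matches at positions -153, -61 and -60, of which the last 2 overlap, and Ano6 held none. Neither the homeodomain core TAATTA, in 5.29% of windows, nor the TATA box TATAAA, in 13.62%, was found on either strand in a window of these 6 genes. These matches are a description of letters and were not tested as binding sites.

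The targeted genes checked the labels. Rtp1 fell from 19788 ± 5913 normalized counts (SD, n = 3 mice) in wild-type to 94.9 ± 12.2 in RTP1,2DKO, and Rtp2 from 8388 ± 1181 to 45.0 ± 16.7. Total counts ranged from 31125360 to 41636928 per mouse. Omp, which marks mature OSNs, and Cyp2g1, which marks sustentacular cells, were abundant in all 6 mice, as in olfactory mucosa. Xist was high in replicate 2 of both groups and low in the other mice, and the methods give 2 males and 1 female, so values without replicate 2 are given where a gene is X-linked. Counts are given as normalized counts, the summed estimated count of a gene divided by the size factor of its library, and comparisons between genes use TPM values, which are scaled by transcript length and by the total of a library.

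RNA for the 3 CNG subunits and for Ano2 was lower in RTP1,2DKO, at 44.1% to 48.1% of the wild-type mean. RNA for Slc12a2, Ano1 and Ano6 stood at 84.9%, 95.0% and 98.9% of the wild-type mean and did not pass the test. Best2 was at the limit of detection in both groups. Of the 8 members, 4 were lower and 0 were higher with an adjusted p under 0.05 (edgeR's quasi-likelihood test, Benjamini-Hochberg adjustment over 22152 genes), where 3.19% of all genes tested were lower and 0.438% were higher. No member was higher at an unadjusted p under 0.05 (0 of 8) or in DESeq2's test (0 of 8). In RNA of whole mucosa, fewer cells of a type and less RNA per cell cannot be told apart.

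Cnga2, the principal subunit of the channel, had 18089, 21238 and 16228 normalized counts in wild-type mice 1 to 3. It had 9237, 9535 and 7967 in RTP1,2DKO mice 1 to 3. The highest RTP1,2DKO mouse was far below the lowest wild-type mouse. This was a log2 fold change of -1.05 with a standard error of 0.14 (adjusted p = 0.000768, edgeR). Cnga2 is X-linked, and with replicate 2 left out of both groups it had a log2 fold change of -0.996 (adjusted p = 0.0263, edgeR).

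Cnga4, a modulatory subunit needed for fast desensitization of the channel by calcium-calmodulin, had 2706, 3523 and 2924 normalized counts in wild-type mice and 1317, 1290 and 1429 in RTP1,2DKO mice. The groups did not overlap, and the 3 RTP1,2DKO mice lay close together. Cnga4 fell by 1.18 on the log2 scale, with a standard error of 0.13 (adjusted p = 0.000239, edgeR).

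Cngb1, a modulatory subunit of which rod photoreceptors use a longer form, had 6032, 6951 and 6179 normalized counts in wild-type mice. It had 3141, 3088 and 2760 in RTP1,2DKO mice, again without overlap. Cngb1 fell by 1.09 on the log2 scale, and its standard error of 0.11 was the smallest among the 4 genes (adjusted p = 0.00021, edgeR).

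Ano2, the chloride channel of OSN cilia, had 4035, 2748 and 2666 normalized counts in wild-type mice and 1344, 1387 and 1433 in RTP1,2DKO mice. Wild-type mouse 1 stood above the other wild-type mice, and no RTP1,2DKO mouse reached the wild-type range. Ano2 fell by 1.18 on the log2 scale, with a standard error of 0.15 (adjusted p = 0.000876, edgeR). The log2 fold change lay between -1.29 and -0.96 in the 6 fits that lacked a mouse, and passed the test in each.

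**Figure D1:**
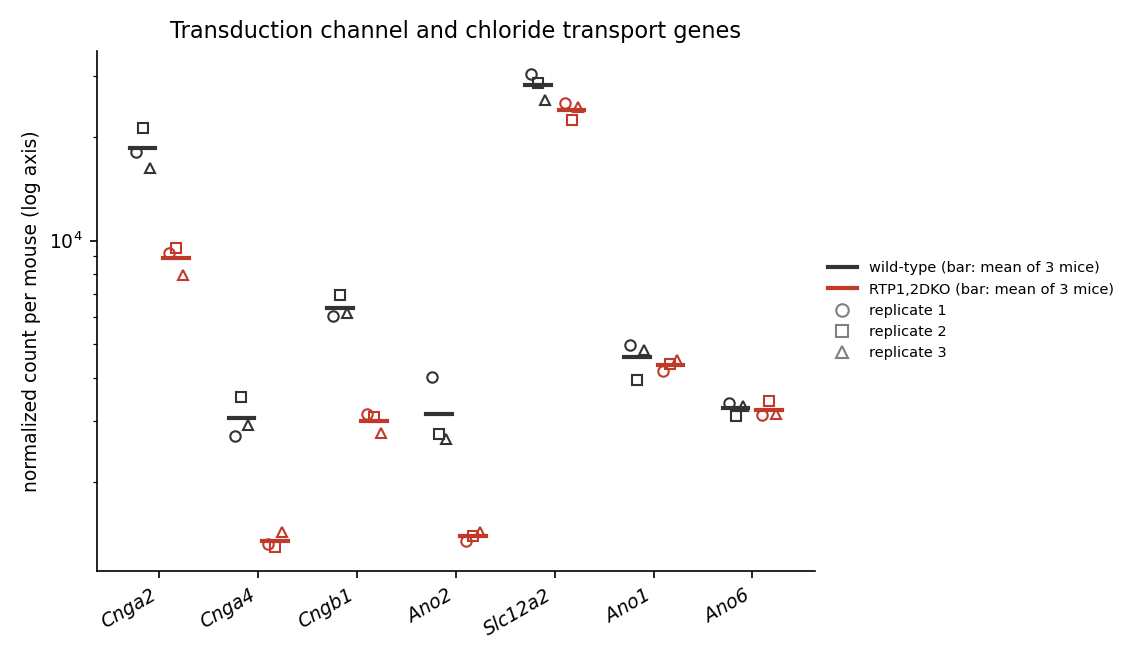
Normalized counts of 7 genes (log axis) in each mouse (n = 3 per genotype), where bars are group means and symbols give the replicate number. The groups are separate for Cnga2, Cnga4, Cngb1, Ano2 and, by a small margin, Slc12a2, and overlap for Ano1 and Ano6. Best2, with at most 4 counts per mouse, is not drawn.

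The fall of these 4 genes was seen on counts relative to the other genes of a library. On the log2(TPM + 1) scale with limma, the log2 fold changes were larger, from -1.36 to -1.26, but none passed (adjusted p = 0.0774 to 0.16). The median of the 18133 genes with a mean of at least 10 normalized counts had moved by -0.17, and the fit called 145 genes in all.

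Slc12a2 (NKCC1), the sodium-potassium-chloride cotransporter that brings chloride into OSNs and into many secretory epithelia, was the member with the highest count (chromosome 18, 57878678 to 57946821, plus strand). It had 30367, 28593 and 25673 normalized counts in wild-type mice and 25059, 22383 and 24403 in RTP1,2DKO mice. Every RTP1,2DKO mouse was below every wild-type mouse, as in 9.24% of all genes tested, but the gap between the nearest mice was small. Its log2 fold change of -0.24, with a standard error of 0.13, did not pass (adjusted p = 0.525, edgeR), which does not show that the level was the same.

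Ano1, a calcium-activated chloride channel of glands, smooth muscle and other epithelia, had 4983, 3942 and 4820 normalized counts in wild-type mice. It had 4192, 4375 and 4492 in RTP1,2DKO mice, all within the wild-type range. The log2 fold change of Ano1 was -0.07 with a standard error of 0.12 (adjusted p = 0.875, edgeR). None of the 8 markers of Bowman's and nasal glands and none of the 3 of smooth muscle passed the test, and their medians of log2 fold change were 0.12 and 0.24. The summed gland markers ranged from 2040000 to 6620000 normalized counts in wild-type mice and from 2980000 to 6350000 in RTP1,2DKO mice, and their part in the value of Ano1 was not tested.

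Ano6, a widely expressed calcium-activated lipid scramblase that also conducts ions, had 3379, 3101 and 3312 normalized counts in wild-type mice and 3116, 3431 and 3139 in RTP1,2DKO mice. The groups overlapped, and both were narrow. The log2 fold change of Ano6 was -0.02 with a standard error of 0.11 (adjusted p = 0.98, edgeR). Its sign turned with any of wild-type mouse 1, RTP1,2DKO mouse 1 or RTP1,2DKO mouse 3 left out, to 0.01, 0.01 and 0.00.

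Best2 had 0, 2 and 0 estimated counts in wild-type mice and 4, 3 and 2 in RTP1,2DKO mice. These counts are too few for a fold change, and at most 0.096 TPM was seen in any mouse. Its own-family relatives were also scarce, with Best1 at 31.6 ± 6.0 normalized counts (SD, n = 3 mice) in wild-type and 25.5 ± 4.7 in RTP1,2DKO, and Best3 at 14.0 ± 13.5 and 20.8 ± 6.1.

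Ordered by TPM, which allows genes to be compared per length, the wild-type mice had Cnga2 first, at 237 ± 78.1 TPM (SD, n = 3), and Slc12a2 next, at 153 ± 42.3. Cnga2 was above Slc12a2 in all 3 mice, although the ranges of the 2 genes over mice overlapped. Cnga4 followed at 51.1 ± 15.7 TPM, below the range of Slc12a2. Cngb1 at 36.4 ± 9.65, Ano1 at 35.7 ± 7.01, Ano2 at 30.1 ± 11.2 and Ano6 at 20.3 ± 4.1 had neighbouring ranges that overlapped. Best2 came last, at 0.02 ± 0.03 TPM.

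In RTP1,2DKO mice Slc12a2 came first, at 109 ± 23.0 TPM (SD, n = 3), and Cnga2 second, at 95.4 ± 22.3, with overlapping ranges. Slc12a2 was the higher in all 3 mice, but in mouse 2 the genes were nearly equal, at 96.457 and 96.366 TPM. With Cngb1 scaled to its 6201-base transcript, Ano1 came next at 28.9 ± 3.96 TPM, above the ranges of all members below it. Cnga4 at 18.9 ± 2.81, Ano6 at 17.04 ± 2.71, Cngb1 at 14.5 ± 3.32 and Ano2 at 11.03 ± 1.56 had overlapping neighbours. So Ano1 and Ano6 stood above Ano2 in every RTP1,2DKO mouse. Slc12a2 stood above Cnga2 in RTP1,2DKO mice 1 and 3 and was nearly equal to it in mouse 2. Every wild-type mouse had Cnga2 above Slc12a2 and Ano2 above Ano6. Ano1 was above Ano2 in every wild-type mouse as well. The change of order restates the fall of Cnga2 and Ano2 and is not a separate result.

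The TPM of Cngb1 depends on the transcript it is scaled to. The files hold a transcript of 6201 bases, which took 99.7% of the TPM of the gene, and one of 1528 bases. GENCODE M21 also has coding transcripts of 3243 and 3336 bases that start within the gene. These are not among the transcripts of the files, so the share of 99.7% does not tell which form the tissue made. Per 3243 bases the level of Cngb1 would be 2.1 times as high in every mouse, and the ratio of Cngb1 to Cnga4 would be 1.51 in wild-type and 1.61 in RTP1,2DKO on average. On that length the ratio of Cngb1 to Cnga2 would be 0.33 in wild-type and 0.319 in RTP1,2DKO on average. Cnga2 would then make up 62.5% to 67.2% of the TPM of the 3 subunits. The place of Cngb1 against Cnga4, Ano1 and Ano6 is therefore not settled here. The comparison between genotypes is the same with either length.

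Within a mouse, ratios of TPM compare members with each other and are free of the scale of the library. For 7 ratios the log2 values of 3 mice were compared with those of 3 mice by an exact permutation test, two-sided, whose smallest p is 0.1, so that none could pass; p-values were adjusted over the 7 ratios.

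The shares of the CNG subunits overlapped between the groups. Cnga2 made up 74.2%, 73.1% and 70.9% of the TPM of the 3 subunits in wild-type mice and 74.5%, 75.4% and 71.8% in RTP1,2DKO mice, with Cngb1 at the deposited length. The ratio of Cnga4 to Cnga2 was 0.198, 0.219 and 0.238 in wild-type mice and 0.188, 0.179 and 0.237 in RTP1,2DKO mice, a log2 difference of -0.12 with overlapping groups (p = 0.4, adjusted p = 0.7, exact permutation test). The ratio of Cngb1 to Cnga2 was 0.150, 0.148 and 0.172 against 0.153, 0.147 and 0.156, a log2 difference of -0.04 (p = 0.8, adjusted p = 0.8, exact permutation test). This was the tightest of the ratios, since all 6 mice fell between 0.147 and 0.172. The ratio of Cngb1 to Cnga4 was 0.719 ± 0.043 (SD, n = 3 mice) in wild-type and 0.765 ± 0.092 in RTP1,2DKO (p = 0.6, adjusted p = 0.8, exact permutation test).

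The ratio of Ano2 to Cnga2 overlapped too, with more spread. It was 0.167, 0.097 and 0.123 in wild-type mice and 0.109, 0.109 and 0.135 in RTP1,2DKO mice, a log2 difference of -0.11 (p = 0.7, adjusted p = 0.8, exact permutation test). The wild-type mice spanned a wider range than the RTP1,2DKO mice, and without wild-type mouse 1 the difference was 0.10.

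The 3 ratios to Ano2 of the members that did not pass the test were separate between the groups. Slc12a2 had 4.28, 5.92 and 5.48 times the TPM of Ano2 in wild-type mice and 10.6, 9.18 and 9.69 times in RTP1,2DKO mice, a 1.89-fold difference. Ano1 had 1.03, 1.20 and 1.51 times the TPM of Ano2 in wild-type mice and 2.61, 2.64 and 2.63 times in RTP1,2DKO mice, a 2.13-fold difference. Ano6 had 0.555, 0.748 and 0.822 times the TPM of Ano2 in wild-type mice and 1.54, 1.64 and 1.45 times in RTP1,2DKO mice, a 2.21-fold difference. Each had the smallest p the design allows (p = 0.1, adjusted p = 0.233, exact permutation test), and these ratios share Ano2, so they are not independent of each other. Ano2 had a log2 fold change of -1.18, so any gene with little change would have a higher ratio to it in RTP1,2DKO mice. The ratios add no result beyond the fall of Ano2.

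**Figure D2:**
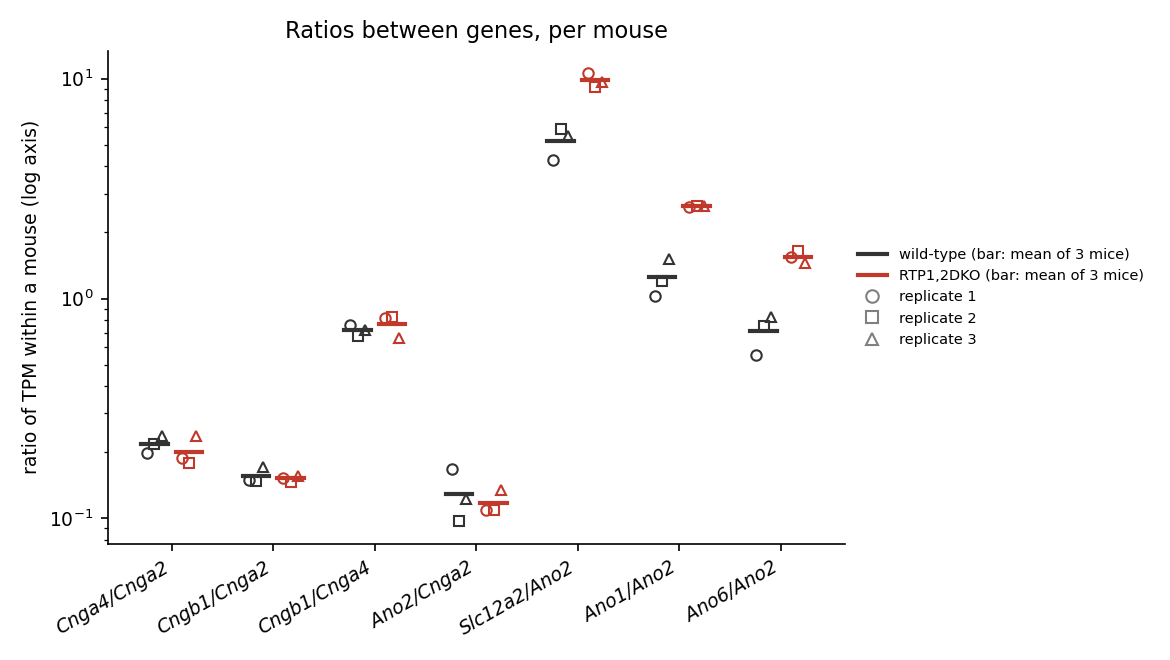
Ratios of TPM between genes within each mouse (log axis), n = 3 mice per genotype, where bars are group means. The ratios among Cnga2, Cnga4, Cngb1 and Ano2 overlap between the groups, and the ratios of Slc12a2, Ano1 and Ano6 to Ano2 do not.

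The members were then set beside other genes of mature OSNs, to see whether they fell more or less than these. The reference was the mean log2 normalized count of 9 genes that mark mature OSNs or are abundant in them (Omp, Gng13, Gnal, Adcy3, Stoml3, Slc17a6, Umodl1, Ric8b and Pde4a), which was lower by -1.05 on the log2 scale in RTP1,2DKO. Of these 9 genes, 8 were past the threshold, all lower, with log2 fold changes from -2.00 in Stoml3 to -0.70 in Umodl1, and Gng13 did not pass. Of the 9, 6 also belong to the transduction pathway described next. Relative to this reference, Cnga2 was 0.66 ± 0.10 (SD, n = 3 mice) in wild-type and 0.65 ± 0.08 in RTP1,2DKO, a difference of -0.01 (p = 1, exact permutation test). Cngb1 differed by -0.05 (p = 0.5), Ano2 by -0.11 (p = 0.8) and Cnga4 by -0.13 (p = 0.3) in the same exact permutation test, all with overlapping groups. With 3 mice against 3 this test cannot go below 0.1, so it could not have called a difference, and without Stoml3 in the reference the 4 values lay lower, from -0.25 to -0.13.

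Slc12a2, Ano6 and Ano1 stood higher relative to the reference in every RTP1,2DKO mouse. Slc12a2 stood 1.27 ± 0.07 (SD, n = 3 mice) above it in wild-type and 2.08 ± 0.13 above it in RTP1,2DKO, Ano6 went from -1.84 ± 0.16 to -0.81 ± 0.06, and Ano1 from -1.35 ± 0.27 to -0.38 ± 0.10. The differences were 0.81, 1.03 and 0.98 on the log2 scale, without overlap between the groups (p = 0.1, the smallest possible, adjusted p = 0.233 over 7 genes, exact permutation test). The reference itself had a log2 difference of -1.05, so any gene with little change would stand higher relative to it. These values therefore restate the fall of the reference and are not a separate result.

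**Figure D3:**
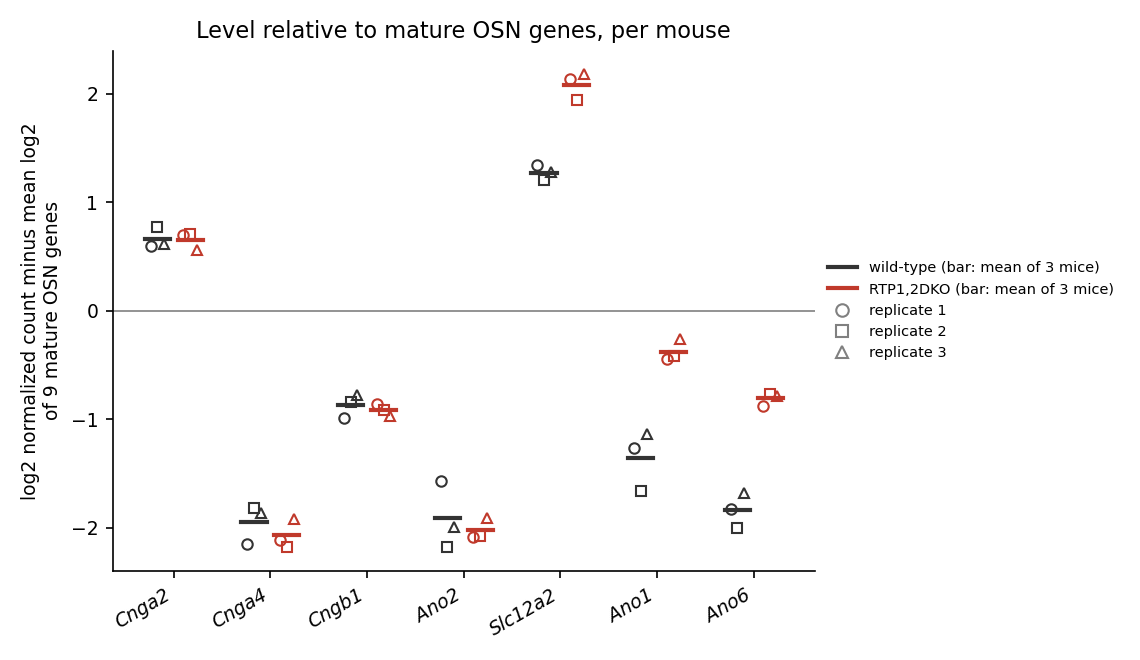
Log2 normalized count of each gene minus the mean log2 of 9 mature OSN genes, by mouse and genotype, n = 3 mice per group, with group means as bars. Cnga2, Cnga4, Cngb1 and Ano2 overlap between the groups, and Slc12a2, Ano1 and Ano6 are higher in all 3 RTP1,2DKO mice.

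Among the 10 other genes of the transduction pathway, 6 were lower in RTP1,2DKO. These were Adcy3, the adenylate cyclase of the cilia, Gnal, which encodes the alpha subunit of Golf, its exchange factor Ric8b, the phosphodiesterases Pde1c and Pde4a, and Omp. Gnal did not pass without RTP1,2DKO mouse 3 (adjusted p = 0.0757, edgeR). With replicate 2 left out of both groups, Gnal, Omp and Ric8b did not pass (adjusted p = 0.157, 0.0876 and 0.0615, edgeR), while Adcy3, Pde1c and Pde4a did. None of the 10 was higher, with 0 at an unadjusted p under 0.05 in edgeR and 0 called by DESeq2. The median log2 fold change of the 10 was -0.91, against 0.01 over the 18133 genes with a mean of 10 or more normalized counts. Slc24a4, the sodium-calcium exchanger that removes calcium from the cilia, had a log2 fold change of -0.69 and did not pass (adjusted p = 0.0575, edgeR), nor did Gng13, Gnb1 and Camk2b, at -0.76, -0.46 and -0.67. DESeq2 called Slc24a4, Gng13 and Gnb1 lower as well, 9 of the 10 in all.

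Markers of other cells of the mucosa were counted beside these genes. Of 8 immature OSN markers, Gap43 and Gng8 were higher, with log2 fold changes of 0.58 (adjusted p = 0.0427) and 0.91 (adjusted p = 0.0125, edgeR), and DESeq2 also called Dpysl3 and Stmn1 higher. Gap43 did not pass with the replicate number as a block (adjusted p = 0.0592, edgeR) or with any single mouse other than wild-type mouse 1 left out (adjusted p = 0.0693 to 0.196). Gng8 did not pass without wild-type mouse 2 (adjusted p = 0.0553, edgeR), RTP1,2DKO mouse 1 (0.0616) or RTP1,2DKO mouse 3 (0.0743), nor without replicate 2 of both groups (0.0972). None of the 7 sustentacular, 4 globose basal, 4 horizontal basal, 5 ionocyte-type, 4 tuft, 5 respiratory ciliated, 5 ensheathing glia, 3 vomeronasal, 3 bone and cartilage, 5 blood and macrophage or 2 endothelial markers passed. Of the 58 markers of cell types other than OSNs, 3 were lower and 11 higher at an unadjusted p under 0.05 in edgeR, where 7.43% of all genes tested were lower and 4.7% higher, and DESeq2 called Krt8, Coch and Hbb-bs higher and Ccdc39 lower. The summed sustentacular markers ranged from 183000 to 227000 normalized counts in wild-type and from 195000 to 223000 in RTP1,2DKO mice. The part of these cells in the values of Slc12a2, Ano1 and Ano6 was not tested.

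Channels and transporters of the same families were examined next. Of 68 genes, 5 were past the threshold, where 3.63% of all genes tested were, and all 5 were lower in RTP1,2DKO. These were the 4 members and Slc12a5 (KCC2), a potassium-chloride cotransporter of neurons that carries chloride out of the cell. Of the 60 genes that are not members, 1 passed, where 3.63% of all genes tested did, and the median log2 fold change of the 60 was -0.02.

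Slc12a5 had 321, 305 and 364 normalized counts in wild-type mice and 184, 208 and 170 in RTP1,2DKO mice, without overlap. Slc12a5 fell by 0.82 on the log2 scale, with a standard error of 0.18 (adjusted p = 0.0202, edgeR). It did not pass without wild-type mouse 3 (adjusted p = 0.0801), without RTP1,2DKO mouse 1 (0.0787) or without RTP1,2DKO mouse 3 (0.109), with log2 fold changes of -0.74, -0.81 and -0.75, nor with replicate 2 left out of both groups (adjusted p = 0.0937, edgeR). The chloride importer Slc12a2 and the exporter Slc12a5 thus had log2 fold changes of the same sign, of which Slc12a5 alone passed. A difference between them was not tested.

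The other cotransporters of the SLC12 family described here did not pass, with log2 fold changes from -0.15 in Slc12a7 to 0.12 in Slc12a1. Slc12a7, the potassium-chloride cotransporter KCC4, was well expressed, at 3087 ± 283 normalized counts (SD, n = 3 mice) in wild-type and 2773 ± 209 in RTP1,2DKO. Slc12a4, Slc12a8 and Slc12a9 had means of 728, 740 and 764 in wild-type and 779, 770 and 703 in RTP1,2DKO. Slc12a1 and Slc12a3, the transporters that kidney uses for salt uptake, had means below 30 in both groups. Of the 8 regulators of these transporters, the WNK kinases, Stk39 and Oxsr1 with the scaffolds Cab39 and Cab39l, 0 passed in edgeR, at an adjusted or an unadjusted p under 0.05, or in DESeq2, and their median log2 fold change was 0.07.

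The other CNG subunits were scarce. Cnga3, the subunit of cones and of the OSNs that use cyclic GMP, had 76.5, 70.6 and 73.9 normalized counts in wild-type mice and 126, 89.8 and 111 in RTP1,2DKO mice. The groups did not overlap, as for 7.17% of all genes with RTP1,2DKO higher, but Cnga3 did not pass (log2 fold change 0.56, adjusted p = 0.394, edgeR). Cngb3, its partner in cones, had 14.5, 11.5 and 14.3 against 16.9, 35.8 and 52.9 (log2 fold change 1.40, adjusted p = 0.238, edgeR). Cnga1, of rods, had at most 6.1 normalized counts in any mouse. The CNG genes that passed were thus the 3 subunits of the olfactory channel.

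Among the anoctamins Ano2 was the only one of 10 genes past the threshold. Ano9 had the largest positive log2 fold change of the family, 0.56, with 333, 299 and 259 normalized counts in wild-type mice and 354, 465 and 494 in RTP1,2DKO mice. The groups did not overlap, and the gene did not pass (adjusted p = 0.144, edgeR). Ano10 had 1257 ± 107 normalized counts in wild-type and 1498 ± 110 in RTP1,2DKO (SD, n = 3 mice), a log2 fold change of 0.25 (adjusted p = 0.437, edgeR). Ano8 had 609 ± 135 and 612 ± 31.8. Ano3, Ano4, Ano5 and Ano7 had means between 20.2 and 73.7 normalized counts in wild-type and log2 fold changes of -1.18, -0.48, -0.60 and -0.23, none of which passed. Of these, Ano3 was the least certain, with a standard error of 0.73.

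**Figure D4:**
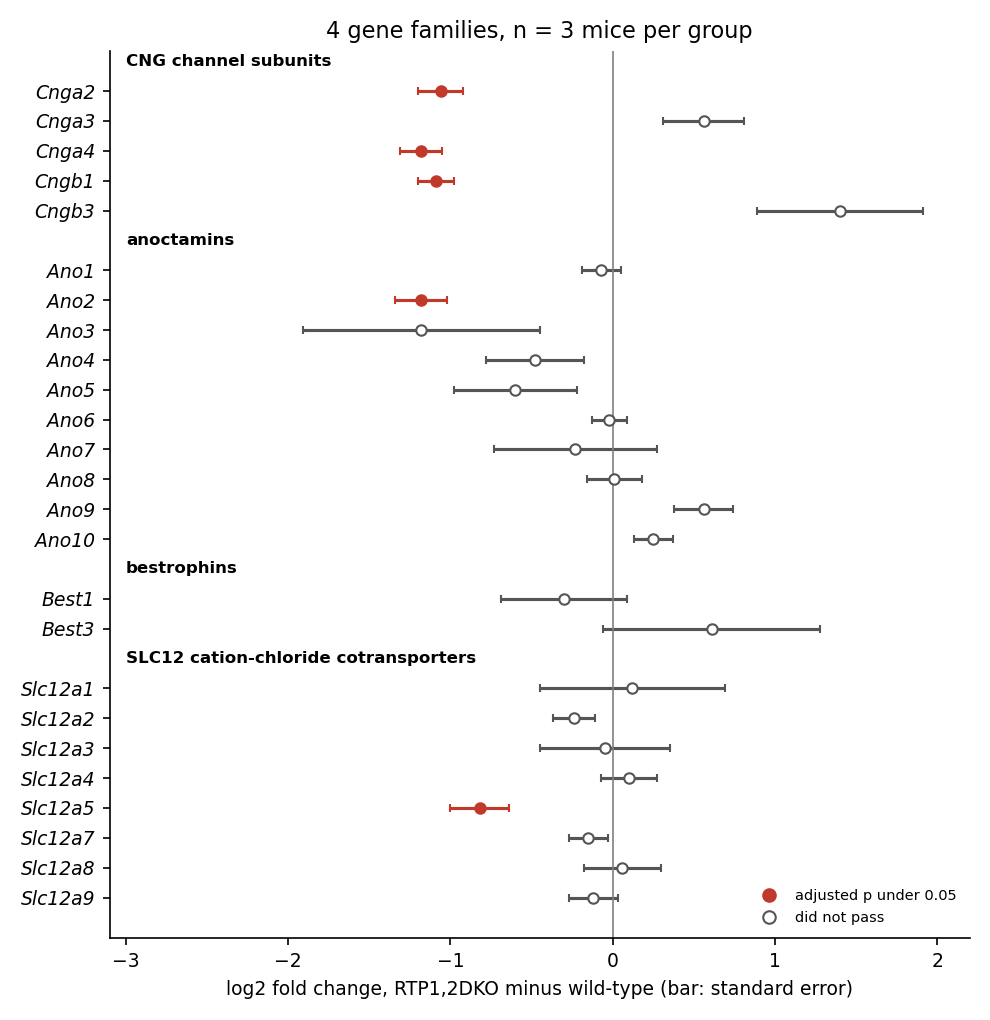
Log2 fold change (RTP1,2DKO minus wild-type) with its standard error for the genes described here of 4 families, with a mean of at least 10 normalized counts, n = 3 mice per group. Filled points passed an adjusted p of 0.05 in edgeR's quasi-likelihood test: Cnga2, Cnga4, Cngb1, Ano2 and Slc12a5, all to the left of 0.

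Of 32 other chloride channels and exchangers, 0 passed in either direction in edgeR's test, and the median log2 fold change was -0.03. At an unadjusted p under 0.05, Clca1 was lower and Slc4a1 higher, and DESeq2 called 0. They include Cftr, the chloride channel of cystic fibrosis, at 1067 ± 114 normalized counts (SD, n = 3 mice) in wild-type and 1062 ± 139 in RTP1,2DKO. Slc4a1, the anion exchanger of red blood cells, came nearest to the threshold, with a log2 fold change of 0.99 (adjusted p = 0.0951, edgeR). The hemoglobin genes Hba-a1 and Hbb-bs each had a log2 fold change of 0.76 and did not pass (adjusted p = 0.194 and 0.134, edgeR). The part of blood in the value of Slc4a1 was not tested.

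Transcript estimates were available for each member. Cnga2, Cnga4, Ano2 and Slc12a2 had 1 transcript each in the files, of 3099, 2480, 3949 and 6520 bases. In a fit over 33023 transcripts, 34 were past the threshold (0.103%), and the 6201-base transcript of Cngb1 was the only one of a member (log2 fold change -1.09, adjusted p = 0.0414, edgeR). The coding transcripts of Cngb1 that start within the gene were not among those fitted. The transcripts of Cnga4, Cnga2 and Ano2 had the log2 fold changes of their genes, at adjusted p = 0.0713, 0.0786 and 0.113 in the same edgeR fit. With the replicate number as a block, or with any mouse left out, no transcript of a member passed.

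Ano1 had 2 transcripts of nearly the same length, 4614 and 4605 bases. The 4605-base transcript took 2.6%, 8.3% and 10.5% of the TPM of Ano1 in wild-type mice and 43.8%, 4.4% and 68.9% in RTP1,2DKO mice. The share was high in RTP1,2DKO mice 1 and 3 and low in mouse 2 of the same group. The means were 7.1% ± 4.1 and 39.0% ± 32.5 (SD, n = 3 mice), and the groups overlapped (p = 0.3, exact permutation test). With 3 mice against 3 this test cannot go below 0.1, so it could not have called a difference. The sum of both transcripts varied little. Taking only the 4614-base transcript, the log2 difference in the ratio of Ano1 to Ano2 would be 0.34 in place of 1.09 (p = 0.6, exact permutation test). How reads were divided between such similar transcripts was an estimate of kallisto, so the summed value was used for Ano1.

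Ano6 had transcripts of 5725 and 5662 bases. The shorter took 80.0%, 75.6% and 66.9% of the TPM of Ano6 in wild-type mice and 80.6%, 83.0% and 79.3% in RTP1,2DKO mice. It was the more abundant in all 6 mice, and the shares overlapped between the groups (p = 0.2, exact permutation test).

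**Figure D5:**
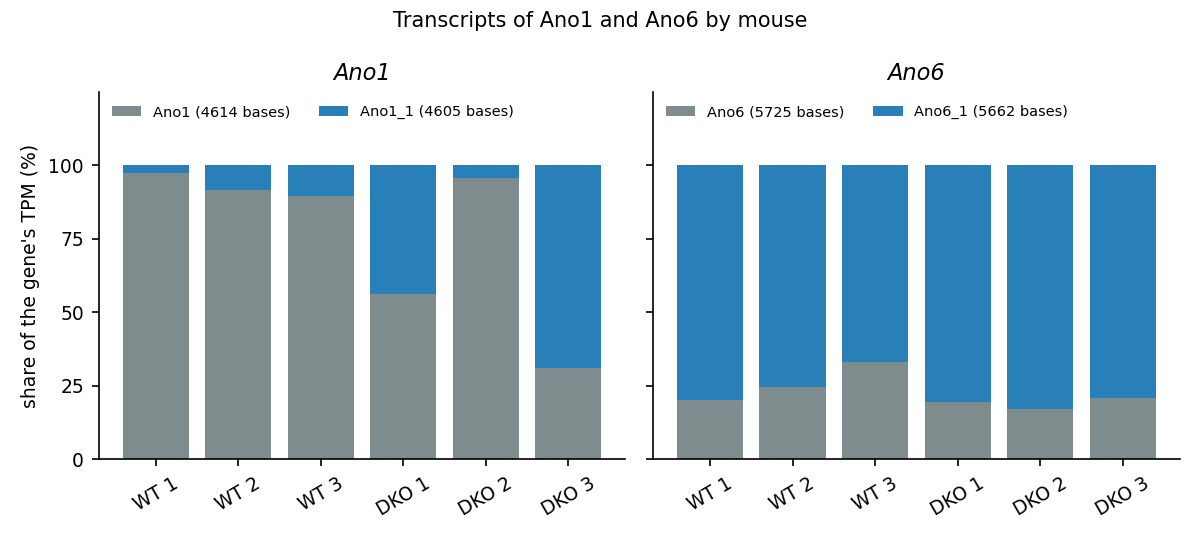
Share of the TPM of Ano1 and of Ano6 assigned to each of 2 transcripts, in percent, as stacked bars for 3 wild-type (WT) and 3 RTP1,2DKO (DKO) mice. The 4605-base transcript of Ano1 ranges from 2.6% to 68.9% among mice, and the 5662-base transcript of Ano6 from 66.9% to 83.0%.

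The genes whose pattern over the 6 mice was most like that of each member were found by the root-mean-square difference of log2 normalized counts, after each gene's own mean was subtracted, among 13899 other genes whose mean was 100 normalized counts or more. The points are mice of 2 groups that differ in many genes, so the values describe likeness only. The genes nearest to Cnga2 were Ppp2r2c, a regulatory subunit of protein phosphatase 2A, at 0.067, Cngb1 at 0.077 and the phosphodiesterase Pde1c at 0.093, where the median over all genes was 0.577. Nearest to Cngb1 were Lrrn1 at 0.073, Cnga2 at 0.077 and Ppp2r2c at 0.083. So Cnga2 and Cngb1 were each the second nearest gene to the other.

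Nearest to Cnga4 were Ctxn3 at 0.071, the OR gene Olfr556 at 0.106 and Lrrn1 at 0.111, and Cngb1 ranked 7 at 0.121. Nearest to Ano2 were the phosphodiesterase Pde4a at 0.102, Stom at 0.105 and Sec14l5 at 0.128, all of them lower in RTP1,2DKO, with log2 fold changes of -1.08, -1.11 and -1.05. Cngb1 ranked 65 and Cnga2 ranked 71 in likeness to Ano2. The CNG subunits lay 0.077 to 0.159 from each other and 0.251 to 0.283 from Ano2, in which wild-type mouse 1 had the highest count, while for Cnga2, Cnga4 and Cngb1 it was wild-type mouse 2.

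For Slc12a2 and Ano1, which did not pass, likeness was to genes that varied little. Nearest to Slc12a2 were Btbd9 at 0.016, Kbtbd3 at 0.032 and Dusp11 at 0.036. Nearest to Ano1 were Psmd2 and Smarca4, both at 0.028, and Grb14 at 0.033. None of these 6 genes passed the test.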

How the data were processed

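RNA-Seq data of 3 wild-type and 3 RTP1,2DKO olfactory mucosae were used, with groups and replicate numbers from the sample labels. The authors ran kallisto, whose version is not given in the sources used here, on mouse transcripts with extended OR annotations, and the submitters' processing notes name mm10. The labels and the methods name different stranded library kits. The deposited files give estimated counts and TPM for each of 38041 transcripts, together with lengths. TPM deposited by the authors are scaled to a common total, so abundant transcripts lower the rest, and the 8 gland markers took 7.7% to 15.8% of all TPM. Estimated counts were summed to 24661 genes and rounded. Total counts ranged from 31125360 to 41636928, and size factors from 0.907 to 1.147.

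For differential expression, genes that reached 1 count in any mouse entered a quasi-likelihood fit with genotype as the only term (edgeR 4.0.16 under R 4.3.3). Median-of-ratios size factors came from DESeq2 1.42.0, after the methods. P-values were adjusted by Benjamini-Hochberg over all genes, with a threshold of 0.05, and the fit was first run on simulated counts with known changes. The standard error is the log2 fold change divided by the square root of the F value. Ratios, shares and levels relative to OSN genes were compared by two-sided exact permutation tests. limma 3.58.1 was used for TPM with a pseudocount of 1. Summaries used Python 3.11.15, numpy 2.4.6, pandas 2.3.3 and scipy 1.17.1.

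Mice with the same number deviated together from their group means (correlations of 0.139, 0.179 and 0.103 over 18133 genes). Mice with unlike numbers had correlations from -0.219 to 0.093. By the rule that each same-number value be above 0.1, the numbers were taken to pair the mice. Fits with the number as a block were run on that assumption. The margin was small, and replicate 2 of both groups was high in Xist. Nothing says that replicates were processed separately beyond being different mice.

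The members, lists and ratios were chosen with earlier results of these data known. Named are the members, the genes of the CNG, anoctamin, bestrophin and SLC12 lists with a mean of at least 10 normalized counts or past the threshold, genes of other lists past the threshold, the 3 genes most alike to each member, and transcripts with at least 5% of the TPM of their gene. Some genes this rule takes are not reported here. Other genes are named as context and were chosen after their values were seen. Rtp1 had been placed in the mature OSN list by mistake and was removed from the reference after the data were seen, since it is deleted. The alternatives were a filter on low counts, TMM factors, a likelihood-ratio test, DESeq2's Wald test, TPM, size factors without chemoreceptor genes, the earlier quasi-likelihood fit (added after seeing the data), the replicate block and each mouse left out.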

Additional observations from a re-analysis of the deposited data

How the results depend on the processing

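The 4 members lower in RTP1,2DKO stayed past the threshold in all fits on counts, including the replicate block and each mouse left out. With limma on log2(TPM + 1), 0 of these members and 0 of the 68 channel and transporter genes passed, and the cause was not tested. The block changed no call of a member gene. It moved the count of all genes called from 804 to 892, and of higher genes from 97 to 150. Leaving out replicate 2 of both groups gave 296 genes, DESeq2 gave 1108, and fits without 1 mouse 524 to 716. With 1 mouse left out, 4 to 5 channel and transporter genes passed. Of members' transcripts, 1 passed; a filter on low counts gave 2, the replicate block 0, and each mouse left out 0 to 0.

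The log2 fold change of Ano6 ranged from -0.063 to 0.010 with a mouse left out. Differences near 0 also changed sign with a mouse left out: relative to mature OSN genes, Cnga2 ranged from -0.037 to 0.051 and Ano2 from -0.243 to 0.062, and the log2 ratio of Ano2 to Cnga2 from -0.294 to 0.099 and of Cngb1 to Cnga2 from -0.079 to 0.029. With Rtp1 among the reference genes, Cnga2, Cnga4, Cngb1 and Ano2 were higher relative to it by 0.655, 0.532, 0.614 and 0.55, since the reference then holds a deleted gene. Without Stoml3 the same 4 were at -0.127, -0.25, -0.168 and -0.233. In the paired form of the ratios and of the levels relative to OSN genes, no p can go below 0.25. Counts of Best2 were too few for any comparison.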
